A study of Mus musculus with 16 samples.

Results

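The imprinted genes of the HSC growth network were followed here as 10 genes, H19, Igf2, Igf2r, Meg3, Dlk1, Grb10, Gnas, Ndn, Peg3 and Plagl1. They were chosen by name, as the lines of the count table that carry one of these symbols, and they are 10 of the 46078 genes in that table. There were 12 such lines, because Dlk1 and Meg3 each had a second line with 0 counts in every sample. Of the 10 genes, 6 passed the filter on low counts and could be tested (Grb10, Igf2r, Gnas, Ndn, Meg3 and Igf2), while H19, Dlk1, Peg3 and Plagl1 did not pass.

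The samples were LSK SLAM HSCs (CD48-, CD150+) of WT B6.SJL mice, sorted by their surface level of MAC-1, an integrin made of CD11b and CD18 that is best known from myeloid cells, and sequenced in bulk. The groups were SS MAC-1- (n = 3) and SS MAC-1low (n = 3) from untreated mice at steady state (SS), and 4 week MAC-1- (n = 3), 4 week MAC-1low (n = 4) and 4 week MAC-1+ (n = 3) from recipients. These recipients had been lethally irradiated with 900 cGy and given 8000 LSK cells 4 weeks earlier. Between SS and 4 week samples, transplantation, the irradiated host and the time since then differ together and cannot be told apart. Each sample held 400 to 600 HSCs. The labels give neither ages nor which mice the replicates came from, so that every p-value measures the spread between these samples, which may be technical. No MAC-1+ population was sequenced at SS, and no parental alleles were read, so that only the sum of both alleles was measured.

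Imprinted genes are read mainly from 1 parental copy, a state that is set by DNA methylation in the germ line and kept through cell divisions. Many of them tune growth. Igf2 is a growth factor read from the paternal copy, Igf2r, read from the maternal copy, carries IGF2 to the lysosome for breakdown, and H19 and Meg3 are maternally read noncoding RNAs that stand beside Igf2 and Dlk1. In adult HSCs this network is known for its link to quiescence, and several of its genes are read in long-term HSCs and less in dividing progenitors.

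The promoters of the 3 members that the comparisons turn on are shown for their CpG, the letters that DNA methylation acts on, which are in capitals. Each is the RefSeq window of 300 bases in GRCm38.p6, from 250 bases before to 50 bases after the start, 5′ to 3′ on the strand of the gene. Meg3 lies at chr12:109540746-109541045 on the + strand, Igf2r at chr17:12769657-12769956 on the - strand and Grb10 at chr11:12037371-12037670 on the - strand.
Meg3: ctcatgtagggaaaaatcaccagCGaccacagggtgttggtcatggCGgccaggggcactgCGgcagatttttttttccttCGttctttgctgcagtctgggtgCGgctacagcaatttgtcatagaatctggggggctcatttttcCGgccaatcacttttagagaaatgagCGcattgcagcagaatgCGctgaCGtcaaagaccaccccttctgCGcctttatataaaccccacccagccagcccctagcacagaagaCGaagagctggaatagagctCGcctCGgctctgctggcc
Igf2r: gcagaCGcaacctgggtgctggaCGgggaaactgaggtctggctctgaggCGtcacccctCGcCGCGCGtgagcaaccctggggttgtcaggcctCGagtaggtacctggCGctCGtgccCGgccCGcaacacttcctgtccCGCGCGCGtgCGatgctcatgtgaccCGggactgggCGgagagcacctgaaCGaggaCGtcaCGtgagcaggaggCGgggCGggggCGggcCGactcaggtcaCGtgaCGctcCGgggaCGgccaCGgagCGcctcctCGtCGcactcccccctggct
Grb10: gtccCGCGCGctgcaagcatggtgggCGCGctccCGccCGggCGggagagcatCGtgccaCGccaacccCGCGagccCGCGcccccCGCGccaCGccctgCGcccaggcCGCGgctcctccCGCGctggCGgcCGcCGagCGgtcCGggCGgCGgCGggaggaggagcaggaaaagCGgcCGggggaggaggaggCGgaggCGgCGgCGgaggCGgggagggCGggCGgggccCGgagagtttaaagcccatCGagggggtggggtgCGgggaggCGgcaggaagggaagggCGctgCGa

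These windows held 45 CpG for Grb10, 34 for Igf2r and 13 for Meg3. The table has a second start for 2 of these genes, with 9 CpG in the window of Grb10 at chr11:12027922-12028221 and 1 CpG in that of Meg3 at chr12:109545148-109545447. The median over the 32851 windows of the table was 7, and 98.1%, 92.3% and 62.1% of them held fewer CpG than the windows shown for Grb10, Igf2r and Meg3. Windows were found for 9 of the 10 members, 17 in all, with a median of 14 CpG, and none was matched for H19. The Meg3 window shown also held the cAMP response element TGACGTCA, searched on both strands, which 1.79% of all windows and 2 of the 17 member windows held, the other one being that of Peg3. It held a TATA box (TATAAA, both strands), as did 13.6% of all windows. These motifs were picked after the sequence had been read, and a match is a description of letters, not of a bound site. Methylation was not measured.

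The total count ran from 13781278 to 28580658 reads per sample. The defining HSC markers were read in every population, with the summed level of all 10 markers at 1811 to 2231 CPM (counts scaled to the total of a sample) in the SS samples, 900.5 to 1021 CPM in 4 week MAC-1-, 1857 to 2501 CPM in 4 week MAC-1low and 2773 to 4093 CPM in 4 week MAC-1+ samples. The 4 week MAC-1- samples stood apart by their megakaryocyte markers, with 4378 to 6997 CPM summed over 8 genes against 365 to 1442 CPM in all other samples. Replicate 3 of 4 week MAC-1+ stood apart by its neutrophil markers, with 7304 CPM summed over 8 genes against 23.1 to 951 CPM in the other 15 samples. In bulk samples, fewer cells that read a gene and less RNA per cell cannot be told apart.

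Per transcript length, Grb10 and Ndn were the most abundant members. Grb10 had a median of 17.6 TPM (counts scaled by transcript length and by the total of a sample) over the 16 samples, with a range from 8.77 to 44.1 TPM, the narrowest of the 10 relative to its level. Ndn had a median of 8.03 TPM and ran from 0 to 58.9 TPM. Igf2r followed at a median of 0.884 TPM, Gnas at 0.233 TPM, Meg3 at 0.0368 TPM and Igf2 at 0.0186 TPM, while the median of Dlk1, H19, Peg3 and Plagl1 was 0. Between 4 and 9 of the 10 members were detected with 1 count or more per sample, and Grb10 and Gnas in all 16. TPM were computed from the lengths of GENCODE M21 exons, and the order of neighbours with overlapping ranges is a description.

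**Figure D1:**
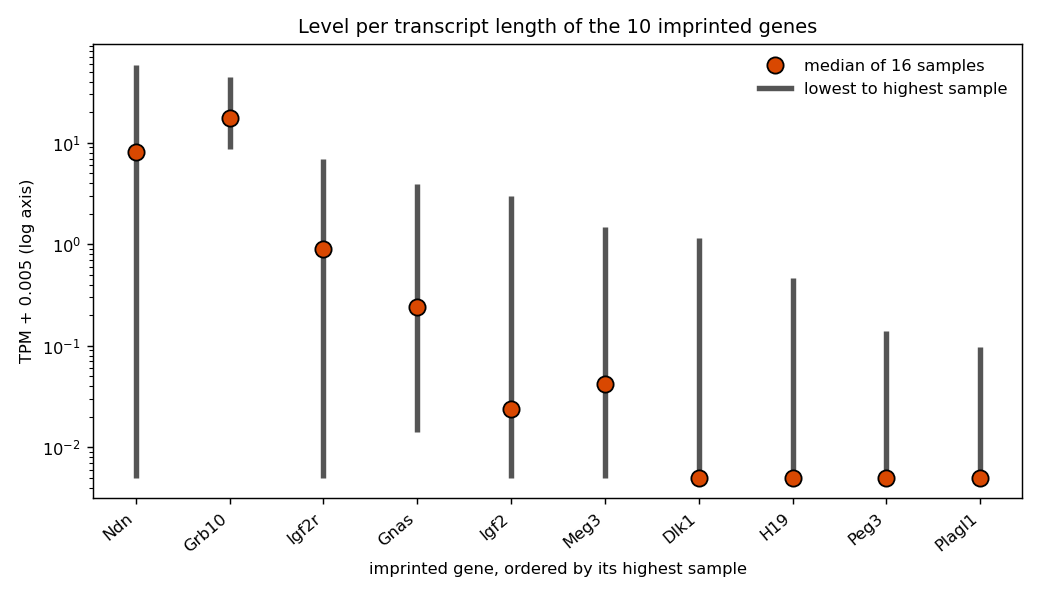
Level of each of the 10 imprinted genes per transcript length, in TPM + 0.005 on a log axis. The point is the median and the bar spans the lowest to the highest of the 16 samples. Grb10 has the shortest bar, from 8.77 to 44.1 TPM, and the medians of Dlk1, H19, Peg3 and Plagl1 lie at 0.

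**Figure D2:**
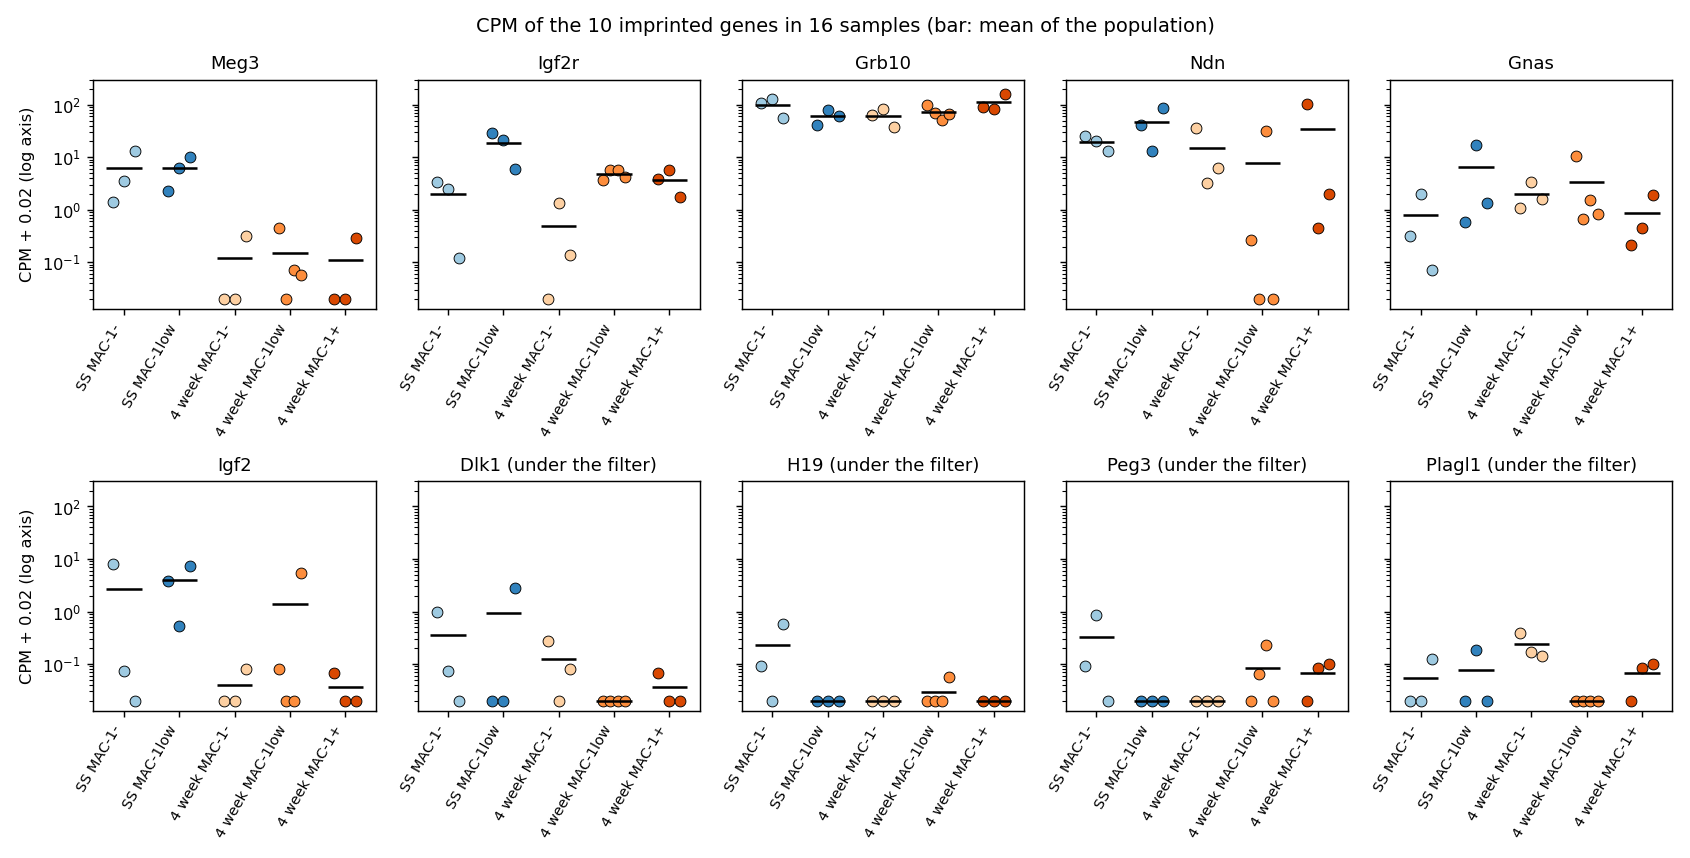
CPM + 0.02 (log axis) of each gene in each sample, by population, with bars at the population means. SS samples are blue and 4 week samples orange. All 6 SS samples of Meg3 lie above all 10 of its 4 week samples, and Igf2r lies higher in MAC-1low than in MAC-1- samples at both times.

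Meg3 was read in every SS sample and was near 0 in every 4 week sample, whatever their MAC-1 level. It is a noncoding RNA (lincRNA, GRCm38 chr12:109541001-109571726, + strand) of the Dlk1-Meg3 region, a region known for preserving HSCs of the fetal liver. Its counts were 19, 68 and 261 in SS MAC-1- and 44, 113 and 194 in SS MAC-1low samples. At 4 weeks they were 0, 0 and 5 in MAC-1-, 7, 0, 1 and 1 in MAC-1low and 0, 0 and 7 in MAC-1+ samples. Thus the lowest SS sample was above the highest 4 week sample, and the SS populations overlapped each other, with a mean of 6.11 ± 6.39 CPM (SD, n = 3) in SS MAC-1- and 6.21 ± 3.86 CPM (SD, n = 3) in SS MAC-1low HSCs. The 10 samples at 4 weeks held 21 Meg3 counts in all, and 5 of them held 0, which allows up to 3 counts each by counting error alone.

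The mean over the 6 SS samples was 6.16 CPM and that over the 10 4 week samples 0.110 CPM, a ratio of 56.2. Of the 13661 genes tested, 41 (0.3%) were lower at 4 weeks than at SS with no overlap between the 6 and 10 samples. Meg3 passed the filter on low counts only through its SS samples, so that its being among these is a description.

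In the model of all genes, the fold change of Meg3 was large and its error too. Against SS, the log2 fold change ran from -5.52 to -5.94 over the 6 pairs of a 4 week and an SS population, with standard errors from 2.17 to 2.5. None of these was called by edgeR's quasi-likelihood test, with adjusted p from 0.306 to 0.503. The mean change over MAC-1- and MAC-1low HSCs, a contrast added after the data were seen, was -5.70 (SE 1.69), with an edgeR adjusted p of 0.170. It was called by DESeq2 (adjusted p = 0.00346) and by limma-voom (adjusted p = 0.0180), which called 8.51% and 1.94% of the genes they tested, and edgeR called 0.864%. As Meg3 passed the filter only through its SS samples, these calls are a description. The adjusted p over the alternatives that tested Meg3 ran from 0.00346 to 0.365. Within 4 weeks, the Meg3 counts of the 3 populations overlapped.

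The summed HSC markers were 1811 to 2231 CPM in the SS samples and 900.5 to 4093 CPM over the 10 samples at 4 weeks. Endothelial markers summed to 21.6 to 159 CPM in SS and to 5.86 to 116 CPM in 4 week samples. All 8 of these genes had more than 3 counts in some sample, but only Emcn in every sample. The part of either in the Meg3 result was not tested. Of the exon bases of Meg3, 8.29% are shared with other annotated genes, among them the precursors of miR-770 and miR-1906-1.

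**Figure D3:**
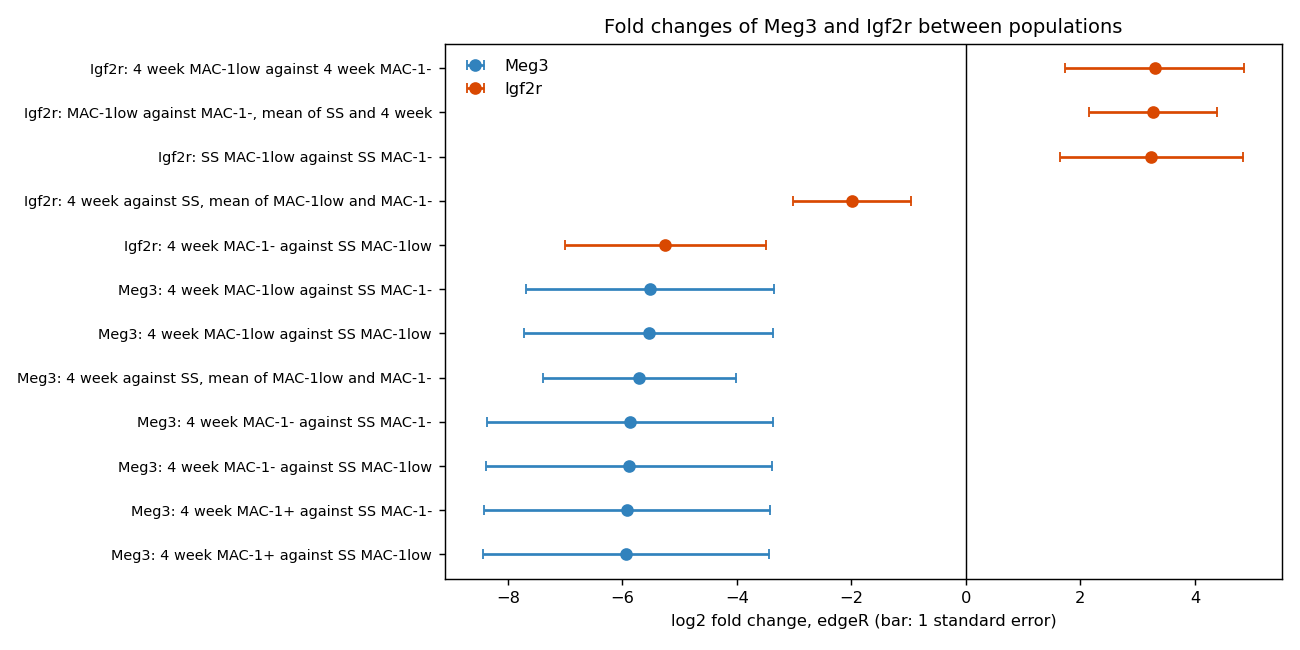
Log2 fold changes of Meg3 and Igf2r from edgeR (x axis) for the comparisons on the y axis, with bars of 1 standard error. The Meg3 changes against SS lie between -5.52 and -5.94, and the Igf2r differences of MAC-1low from MAC-1- HSCs lie at 3.23 in SS and 3.30 at 4 weeks.

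Igf2r was higher in MAC-1low than in MAC-1- HSCs both at SS and at 4 weeks. It encodes the cation-independent mannose-6-phosphate receptor, which removes IGF2 (GRCm38 chr17:12682406-12769664, - strand, no exon bases shared with another gene). At SS its counts were 46, 48 and 2 in MAC-1- and 562, 380 and 115 in MAC-1low samples. At 4 weeks they were 0, 35 and 2 in MAC-1-, 60, 127, 112 and 112 in MAC-1low and 81, 90 and 43 in MAC-1+ samples. On the CPM scale neither pair of MAC-1low and MAC-1- samples overlapped, and the 4 week MAC-1+ samples also lay above the 4 week MAC-1- samples.

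The mean of Igf2r was 18.8 ± 11.9 CPM (SD, n = 3) in SS MAC-1low and 2.00 ± 1.70 CPM (SD, n = 3) in SS MAC-1- HSCs, a ratio of 9.43. It was 4.87 ± 1.09 CPM (SD, n = 4) in 4 week MAC-1low, 3.73 ± 1.98 CPM (SD, n = 3) in 4 week MAC-1+ and 0.482 ± 0.734 CPM (SD, n = 3) in 4 week MAC-1- HSCs, ratios of 10.1 and 7.74 against the last. In the order of means, only the step from SS MAC-1low to 4 week MAC-1low was larger than the larger SD of the neighbours. Those samples did not overlap (3.68 to 5.83 CPM against 5.93 to 29.3 CPM), and the next steps, from 4 week MAC-1low to 4 week MAC-1+, to SS MAC-1- and to 4 week MAC-1- HSCs, were within it.

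Genes whose samples did not overlap were not rare, and the count of members reads against that. Higher in SS MAC-1low than in SS MAC-1- without overlap were 5.95% of the genes tested and 1 of the 6 tested members, and higher in 4 week MAC-1low than in 4 week MAC-1- were 5.23% and again 1 member, Igf2r. At 4 weeks, 10.2% and 2 members, Igf2r and Grb10, were higher in MAC-1+ samples than in those without MAC-1 (MAC-1-), and 4.98% and 2 members, Igf2r and Meg3, were lower in 4 week MAC-1low than in SS MAC-1low samples. Both at SS and at 4 weeks, 52 genes (0.381%) were higher in MAC-1low without overlap, Igf2r among them.

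edgeR gave Igf2r a log2 fold change of 3.23 (SE 1.60, adjusted p = 0.551) between the SS populations and of 3.30 (SE 1.56, adjusted p = 0.682) between 4 week MAC-1low and MAC-1- HSCs. The difference between these changes was 0.07 (SE 1.70), with an edgeR adjusted p of 1.00. Their mean, a contrast added after the data were seen, was 3.27 (SE 1.12, edgeR adjusted p = 0.349), and DESeq2 called it (adjusted p = 0.0112), as it did 5.44% of the genes it tested. limma-voom did not (adjusted p = 0.121). Between 4 week MAC-1- and SS MAC-1low HSCs, the lowest and the highest population, the log2 fold change of Igf2r was -5.25 (SE 1.76), with an adjusted p of 0.340 by edgeR, 0.00299 by DESeq2 and 0.0295 by limma-voom.

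The low HSC markers and high megakaryocyte markers of 4 week MAC-1- samples move with the low Igf2r there. At SS the HSC markers of both MAC-1 populations overlapped, at 1811 to 2083 CPM in MAC-1- and 1840 to 2231 CPM in MAC-1low samples. Other markers did not overlap there. Endothelial markers were lower in SS MAC-1low (21.6 to 57.4 CPM against 115 to 159 CPM), as were those of T and NK cells (216 to 249 CPM against 273 to 390 CPM). Neutrophil markers were higher (131 to 168 CPM against 79.4 to 111 CPM). The only markers of these lists with more than 3 counts in every SS sample were Emcn (endothelial), Nkg7 (T and NK), S100a8 and S100a9 (neutrophil). These sums are thus not a measure of such cells. The part of these markers in the Igf2r results was not tested. Over the 16 samples, the genes with a pattern most like Igf2r by Pearson's r of log2 CPM were Pnpla7 (0.838), Hmga2 (0.818) and Gm13268 (0.800), values that describe 5 populations with shared samples and carry no test.

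Grb10 was the steadiest member and was read at a high level in every sample. It encodes an adaptor that binds the insulin and IGF1 receptors and damps their signal (GRCm38 chr11:11930508-12038683, - strand, no shared exon bases). Its counts were 1494, 2464 and 1114 in SS MAC-1- samples, 800, 1397 and 1180 in SS MAC-1low samples, 1015, 2186 and 628 in 4 week MAC-1-, 1607, 1519, 986 and 1784 in 4 week MAC-1low and 1911, 1348 and 4025 in 4 week MAC-1+ samples. The highest and lowest samples were 6.41 times apart. Its biological coefficient of variation was 0.399, against a median of 0.929 over all genes tested, of which 13.4% varied less.

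The mean of Grb10 was 111.5 ± 41.4 CPM (SD, n = 3) in 4 week MAC-1+, 98.6 ± 37.2 CPM (SD, n = 3) in SS MAC-1-, 71.5 ± 19.9 CPM (SD, n = 4) in 4 week MAC-1low, 61.5 ± 22.6 CPM (SD, n = 3) in 4 week MAC-1- and 60.2 ± 18.2 CPM (SD, n = 3) in SS MAC-1low HSCs. No neighbours in this order differed by more than the larger SD. The 4 week MAC-1+ samples lay above the 4 week MAC-1- samples, from 84.7 to 159 CPM against 37.9 to 82.9 CPM. That log2 fold change was 0.86 (SE 0.42), with an edgeR adjusted p of 0.399. The highest value came from replicate 3, the sample with high neutrophil markers. The other 2 samples, at 84.7 CPM (replicate 2) and 90.7 CPM (replicate 1), were also above 82.9 CPM. Replicate 2 had the next highest neutrophil markers of the 16 samples, at 951 CPM, against 164 CPM in replicate 1. The part of these markers was not tested. The log2 change from SS to 4 weeks, as the mean over MAC-1- and MAC-1low HSCs, was -0.22 (SE 0.29, edgeR adjusted p = 0.850). That change leaves out the 4 week MAC-1+ samples. Over all samples, the mean of Grb10 was 79.4 CPM at SS and 80.5 CPM at 4 weeks. The log2 change of MAC-1low against MAC-1- HSCs, as the mean over SS and 4 weeks, was -0.25 (SE 0.29, edgeR adjusted p = 0.902). The genes most like Grb10 over the 16 samples were Bbs1 (r = 0.836), Kmt2c (r = 0.764) and Chpf2 (r = 0.756).

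Ndn was read at a high level in all 6 SS samples and ranged from absent to the highest value of the series at 4 weeks. It encodes Necdin, a growth suppressor that binds p53 and E2F1 and is known for restraining HSC division (GRCm38 chr7:62346569-62350262, + strand, no shared exon bases). Its counts were 341, 388 and 258 in SS MAC-1- and 801, 235 and 1711 in SS MAC-1low samples. At 4 weeks they were 578, 84 and 104 in MAC-1-, 4, 0, 606 and 0 in MAC-1low and 2152, 7 and 49 in MAC-1+ samples. Single samples thus carried most of the reads in each 4 week population, while the SS samples kept to 13.1 to 88.2 CPM. The median was 22.7 CPM over the SS samples and 2.56 CPM over the 4 week samples, and these overlapped. The log2 fold change from SS to 4 weeks, as the mean over MAC-1- and MAC-1low HSCs, was -1.48 (SE 1.45, edgeR adjusted p = 0.778). That change leaves out the 4 week MAC-1+ samples. Of the genes tested, 91.4% had a smaller SD of log2 CPM within populations than Ndn. The genes most like it were Art4 (r = 0.786), Layn (r = 0.782) and Tle2 (r = 0.775).

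Gnas was read in all 16 samples at a low and uneven level. It encodes the stimulatory G protein subunit that turns on adenylyl cyclase (GRCm38 chr2:174284320-174346744, + strand). Of its exon bases, 22.0% are shared with genes on the opposite strand, Nespas and Gm20721. The libraries do not keep strand, and the part of such reads in the Gnas counts was not tested. The Gnas counts were 4 to 170 at 4 weeks, with a median of 24, and 1 to 312 at SS, with a median of 18.5. The highest samples were replicate 2 of SS MAC-1low at 312 and replicate 1 of 4 week MAC-1low at 170 counts, and every other sample held 90 or fewer. The log2 fold change of MAC-1low against MAC-1- HSCs, as the mean over SS and 4 weeks, was 1.90 (SE 1.25, edgeR adjusted p = 0.687), and the samples overlapped. The genes most like it were Gtse1 (r = 0.863), 2310026L22Rik (r = 0.787) and Timmdc1 (r = 0.757).

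Igf2, the growth factor, was found in 5 of the 16 samples at more than 3 counts, and these were mostly SS samples. It lies at GRCm38 chr7:142650766-142666816 on the - strand, and 64.5% of its exon bases are shared with other genes, most of them with Gm49394 on the same strand, so that its counts are uncertain. They were 110, 1 and 0 in SS MAC-1- and 74, 9 and 142 in SS MAC-1low samples. At 4 weeks they were 0, 0 and 1 in MAC-1-, 1, 0, 0 and 144 in MAC-1low and 1, 0 and 0 in MAC-1+ samples. SS and 4 week samples as a whole overlapped. Igf2 passed the filter mostly through the samples where it was high, so that its fold changes are a description. The log2 fold change from SS to 4 weeks, as the mean over MAC-1- and MAC-1low HSCs, was -4.12 (SE 1.96, edgeR adjusted p = 0.404). That change leaves out the 4 week MAC-1+ samples. The log2 fold change of MAC-1low against MAC-1- HSCs, as the mean over SS and 4 weeks, was 3.14 (SE 1.92, edgeR adjusted p = 0.649). Over the 10 stromal markers, of which Pdgfra, Lum and Sparc never exceeded 3 counts, the summed level was 4.91, 2.87, 12.4, 0.825 and 9.37 CPM in these 5 samples and 0.0514 to 28.0 CPM in the other 11, and their part was not tested.

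H19, Dlk1, Peg3 and Plagl1 were at or near 0 almost everywhere. H19, the noncoding RNA that hosts miR-675 (GRCm38 chr7:142575529-142578143, - strand), had 11 counts in replicate 3 of SS MAC-1-, 1 count in 2 other samples and 0 in 13. Dlk1, a membrane-bound relative of the Notch ligands (chr12:109452823-109463336, + strand), had 54 counts in replicate 3 of SS MAC-1low, 13 in replicate 1 of SS MAC-1-, 4 or fewer elsewhere and 0 in all 4 samples of 4 week MAC-1low. Both samples with more than 4 Dlk1 counts also held Meg3, its neighbour, at 194 and 19 counts, while the other 4 SS samples held Meg3 with at most 1 Dlk1 count. Peg3, a zinc finger protein (chr7:6703892-6730431, - strand), had 16 counts in replicate 2 of SS MAC-1- and 4 or fewer elsewhere. Plagl1, a zinc finger protein that acts on other imprinted genes (chr10:13060504-13131694, + strand), had 6, 4 and 2 counts in 4 week MAC-1-, the only population with a count in each sample, and 3 or fewer elsewhere. With a floor of 3 counts, corresponding to 0.105 to 0.218 CPM, no fold was computed for these 4 genes.

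No member was called by edgeR in any of the 10 pairwise comparisons, the joint test of all 5 populations or the interaction. The joint test gave Meg3 an adjusted p of 0.253 and Igf2r one of 0.365. At an unadjusted p under 0.05, edgeR had 0 members in the 3 comparisons within 4 weeks, in that of the SS populations and in the interaction. It had 1 to 3 of 6 in each of the 6 comparisons of a 4 week with an SS population. Meg3 was among these members in each of the 6, and any others were Igf2 or Igf2r. Meg3 passed the filter only through its SS samples, and Igf2 mostly through samples where it was high. These counts are therefore a description. Of all genes, 6.85% to 14% had such a p in a planned comparison. Of all genes, edgeR called, within 4 weeks, 3.25% for MAC-1+ against MAC-1-, 0.278% for MAC-1low against MAC-1- and 0% for MAC-1+ against MAC-1low (936 genes at an unadjusted p under 0.05), and it called 0.0146% between the SS populations. Between 4 week and SS populations it called 0.432% for both MAC-1- and 0.0439% for both MAC-1low populations. It called 2.36% and 1.42% between 4 week MAC-1+ and SS MAC-1- or MAC-1low HSCs. For 4 week MAC-1- against SS MAC-1low HSCs it called 0.505%, and for 4 week MAC-1low against SS MAC-1- HSCs 0.19%. The joint test called 2.22%, the interaction 0.0586% and the mean of MAC-1low against MAC-1- over both times 0.0586%. A count of 0 among 6 members stands against these shares of all genes.

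DESeq2 and limma-voom called Meg3 and Igf2r, and no other member, in some of these comparisons. DESeq2 called Meg3 as lower in 4 week MAC-1-, MAC-1low and MAC-1+ than in SS MAC-1- HSCs and in 4 week MAC-1+ than in SS MAC-1low HSCs, where it called 6.83%, 6.62%, 11% and 8.43% of all genes it tested. It called Igf2r between 4 week MAC-1- and SS MAC-1low HSCs (5.56% of genes), and both genes in its joint test (10.9%). limma-voom called Meg3 and Igf2r between 4 week MAC-1- and SS MAC-1low HSCs (1.9%), Igf2r between 4 week MAC-1low and MAC-1- HSCs (2.26%) and Meg3 in its joint test (2.78%). These shares are those of called genes in either direction. Meg3 passed the filter only through its SS samples, so that its calls are a description.

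The median log2 fold change of the 6 tested members was -1.35 between 4 week and SS MAC-1- HSCs and -1.73 between 4 week and SS MAC-1low HSCs, beside -0.03 and -0.02 over all genes tested. Of the 6, 5 had a negative fold change in each of these comparisons. Between MAC-1low and MAC-1- HSCs the median of the members was 0.91 at SS and 0.54 at 4 weeks, beside 0.00 and 0.05. As Meg3 and Igf2 passed the filter mostly through samples where they were high, these medians describe the 6 genes only.

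**Figure D4:**
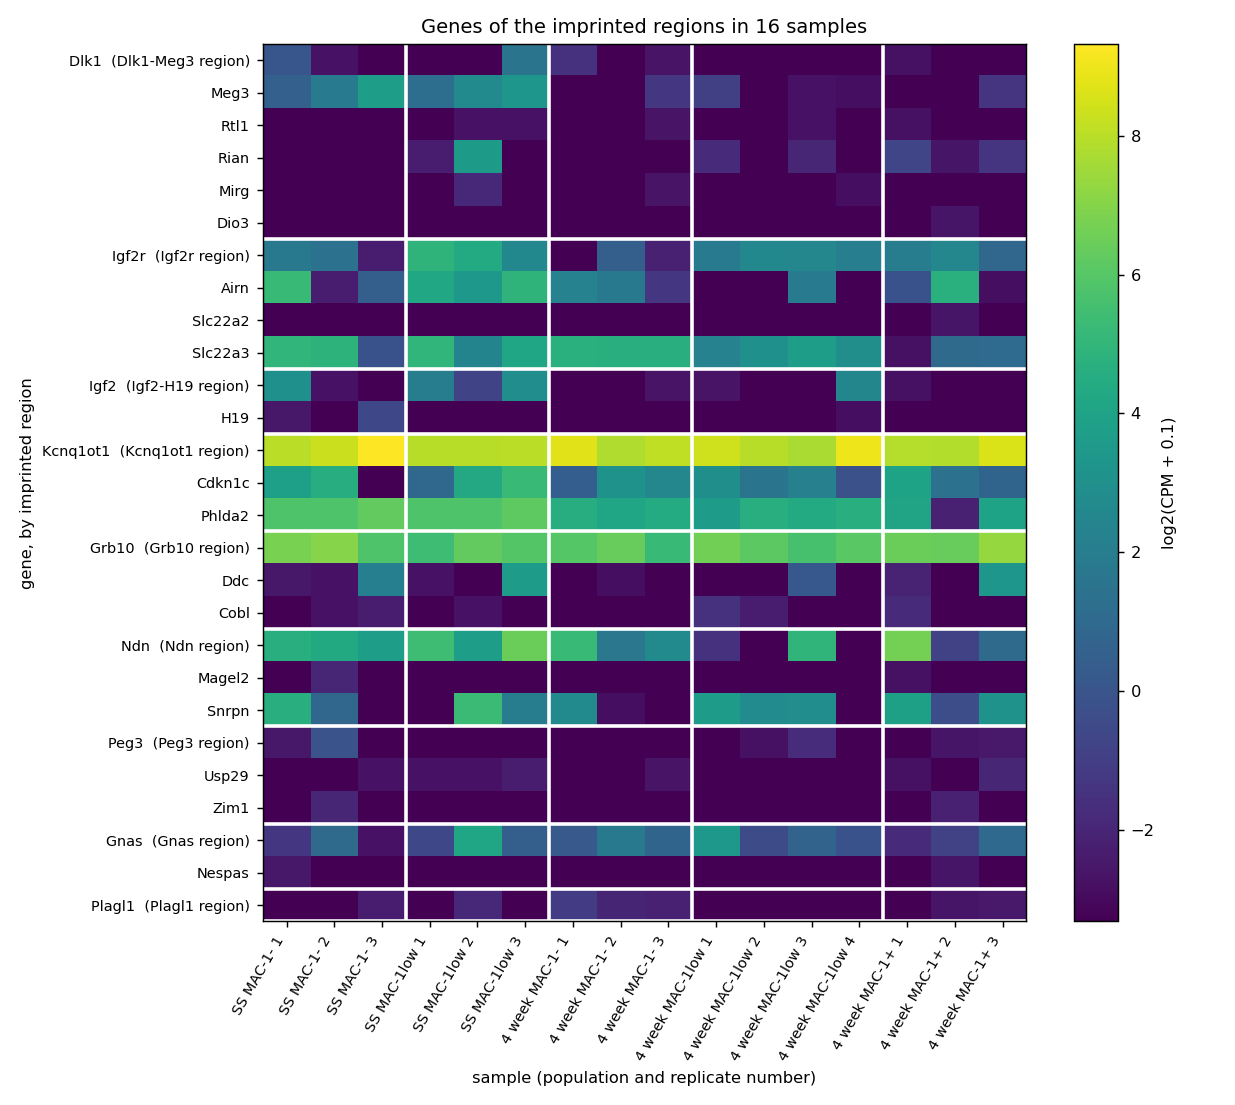
Level in log2(CPM + 0.1), as colour, of the members and their neighbours in imprinted regions (rows) in the 16 samples (columns, with population and replicate number). White lines part the regions and the populations. Meg3 is lit in the 6 SS columns, Phlda2 is brighter there than in the 10 4 week columns, and Grb10 and Kcnq1ot1 are lit throughout.

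The neighbours of Meg3 and Igf2r in their imprinted regions had patterns of their own. Beside Meg3, the maternally read noncoding RNA Rian had 211 counts in replicate 2 of SS MAC-1low and 11 or fewer elsewhere, and Mirg, Rtl1 and Dio3 had at most 3 counts in a sample. In 5 of the 6 SS samples Meg3 was thus read with at most 2 counts of Rian. Beside Igf2r, Airn, the paternally read noncoding RNA that silences the paternal Igf2r copy, had 351, 187 and 570 counts in SS MAC-1low, 503, 2 and 26 in SS MAC-1- and 0 to 419 in the 4 week samples. In replicates 1, 2 and 4 of 4 week MAC-1low it had 0 counts, where Igf2r had 60 to 127. Slc22a3, an organic cation transporter of the same region, had 414 to 643 counts in 4 week MAC-1- samples, where Igf2r was lowest. It had 78 to 251 in 4 week MAC-1low and 1 to 52 in 4 week MAC-1+ samples. At SS it had 432, 548 and 16 in MAC-1- and 612, 93 and 339 in MAC-1low samples, where Igf2r was highest. These neighbours are named after their values were seen.

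Phlda2, a growth-restraining imprinted gene further along the chromosome from H19 and Igf2, was lower at 4 weeks than at SS without overlap, as Meg3 was. It is named after its values were seen. Its counts were 784 to 1526 (median 1091) over the 6 SS and 2 to 639 (median 387) over the 10 4 week samples, with means of 63.5 and 17.9 CPM. Its mean change over MAC-1- and MAC-1low HSCs, a contrast added after the data were seen, leaves out the 4 week MAC-1+ samples. edgeR did not call that change (log2 fold change -1.60, SE 0.62, adjusted p = 0.285) while DESeq2 (adjusted p = 0.0731) and limma-voom (adjusted p = 0.0614) did. In this contrast DESeq2 and limma-voom called 8.51% and 1.94% of the genes they tested. Kcnq1ot1, the noncoding RNA of that region, was read in every sample at 207 to 640 CPM.

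None of the 4 lists around the members held a gene that edgeR called in the 12 planned comparisons. Of 48 other imprinted genes, 25 were tested, and 0 to 4 of them had an unadjusted p under 0.05 in a comparison, where 6.85% to 14% of all genes had one. DESeq2 called 8 of them in at least 1 of the 12 planned comparisons (Commd1, Herc3, Inpp5f, Peg13, Phlda2, Ppp1r9a, Slc22a3 and Trappc9) and limma-voom 3. Of all genes, DESeq2 called 24.5% and limma-voom 8.4% in at least 1 of these 12, which is the background for the counts of the other lists too. Of the 35 genes of IGF and insulin signalling, 23 were tested, with 0 to 3 under that p, and DESeq2 called 7 and limma-voom 2. The receptors of this list had unlike levels. Insr, the insulin receptor, had a mean of 32.4 to 99.3 CPM over the 5 populations, while Igf1r, the receptor through which IGF1 and IGF2 signal, had 0.168 ± 0.180 CPM (SD, n = 3) in SS MAC-1- and 3.24 to 4.86 CPM in the other populations. Both are named after their values were seen.

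Of the 8 keepers of imprints, a list of proteins with known roles at imprinted regions, 7 were tested, with 0 to 3 under an unadjusted p of 0.05. DESeq2 called Ctcf, Dnmt1 and Uhrf1, and limma-voom called 0. Of 17 partners of the members, 15 were tested, with 0 to 4 under that p, 5 called by DESeq2 and 0 by limma-voom. M6pr, the other mannose-6-phosphate receptor, kept a mean of 120.6 to 144.5 CPM in all 5 populations, named after its values were seen.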

How the data were processed

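RNA of sorted HSCs was copied with SMART-Seq v4, which covers whole transcripts without molecular identifiers, and Nextera XT libraries, which do not keep strand, were sequenced on a NextSeq 500. The authors deposited 1 table of raw counts per gene and sample, from release 1.4.2 of the nf-core pipeline for RNA-seq with STAR as the aligner. For the counter, the genome build and the annotation, the sources used here give nothing. Places and lengths of genes came from a match to GENCODE M21 (GRCm38), which held 98.0% of the identifiers and 99.9% of the counts.

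Samples were grouped by their labels. Genes were filtered with filterByExpr at its defaults (minimum count 10, total 15), which left 13661. edgeR 4.0.16 in R 4.3.3 (TMM, robust quasi-likelihood fit) was run with 1 mean per population over all 16 samples. Genes were called at a Benjamini-Hochberg adjusted p under 0.1 over all genes tested, the study's threshold without its fold limit. A standard error is the log2 fold change divided by the root of F. CPM carry the TMM factors, and log2 CPM a prior count of 2. TPM divide counts by exon length. Plots used Python 3.11.15 and matplotlib 3.10.9.

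Alternatives were DESeq2 1.42.0 (the study's tool), limma 3.58.1 (voom, weighting the samples), size factors from DESeq2 in edgeR, no filter, a filter at a mean of 50 counts, only the populations compared, the replicate number as a block and leaving out each sample. The fits were tested on simulated data. The plan was to name all 10 members, other list genes where edgeR called them, and up to 3 genes most like each member with a mean of 50 counts or more. As edgeR called none of the other list genes, those in the text were picked after their values were seen or as called by DESeq2 or limma-voom. The members and lists were chosen with earlier results of these data known. Where a sample held 0 counts, 3 was used as the upper limit, and such limits cover counting error only.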

Additional observations from a re-analysis of the deposited data

Results flagged for a closer look

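Within the 4 samples of 4 week MAC-1low HSCs, a single sample stood far above the others in 4 of 7 members examined, by the gap to its nearest neighbour relative to the range. The limit used gives this in about 1 of 20 groups of normal values, and these counts near 0 are not normal. By the same limit, 1869 of the 13386 genes tested with more than 3 counts in one of these samples had a sample apart. Of these genes, 5415 had a mean under 200 counts, and 1396 of those (25.78%) had a sample apart. Igf2, Meg3 and Gnas, with means of 30.2, 45 and 51.2 counts over the 16 samples, are such genes of low counts. Ndn was at 31.2 CPM in replicate 3, against 0 to 0.245 CPM in the other samples. Gnas was at 10.4 CPM in replicate 1, against 0.643 to 1.54 CPM. Igf2 was at 5.40 CPM in replicate 4, against 0 to 0.0613 CPM. Meg3 was at 0.429 CPM in replicate 1, against 0 to 0.0514 CPM, and was there below the lowest SS sample at 1.39 CPM. Populations of 3 samples were not examined in this way.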

How the results depend on the processing

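edgeR called 0 of the 6 tested members in all 14 comparisons. This held with each of the 16 samples left out, with DESeq2's size factors, with no filter and with only the populations compared. It also held with the stricter filter for the members that passed it. Meg3 and Igf2, with means of 45 and 30.2 counts, did not pass that filter, so it says nothing about them. Other tools gave more. DESeq2 called 1 member in each of 4 week MAC-1-, MAC-1low and MAC-1+ against SS MAC-1-, 4 week MAC-1+ and MAC-1- against SS MAC-1low and both mean contrasts, and 2 in the joint test. limma-voom called 1 in 4 week MAC-1low against MAC-1-, in the joint test and in the mean contrast of 4 week against SS. It called 2 in 4 week MAC-1- against SS MAC-1low. The cause was not tested. Of 428 recomputed values of 19 fold changes, 417 kept their direction and side of the threshold, 11 newly passed it and 0 changed direction. The mean log2 change of Meg3 from SS to 4 weeks over MAC-1- and MAC-1low HSCs ran from -7.73 to -5.05. That of Igf2 ran from -6.98 to -0.93 and that of Ndn from -4.83 to -1.13. For Igf2r, the mean change of MAC-1low against MAC-1- HSCs ran from 2.98 to 4.71.

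Same-numbered replicates did not deviate together (r from -0.0249 to 0.0397 over 30 pairs, and 6 of 16 samples correlated best with their own number), so these numbers were not taken to pair the samples. Whether other samples share mice is not said in the labels and was not examined. With the replicate number as a block, 0 members were called in each comparison, and the mean change of Meg3 was -5.71 (edgeR adjusted p = 0.254). Counting depth limits Meg3, Igf2, H19, Dlk1, Peg3 and Plagl1 at 4 weeks, where most samples held 7 counts or fewer.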

Other observations

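Cdkn1c, the imprinted gene of the cell cycle inhibitor p57 that is known for HSC quiescence, and Uhrf1, which brings DNA methylation to newly copied DNA, are given after their values were seen. Cdkn1c had 0 to 736 counts (median 272.5) in the 6 SS samples and 20 to 340 counts (median 75) in the 10 4 week samples, which overlapped. Its log2 change from SS to 4 weeks, as the mean over MAC-1- and MAC-1low HSCs, was -1.78 (SE 1.15, edgeR adjusted p = 0.585). That change leaves out the 4 week MAC-1+ samples. Uhrf1 had a mean of 23.0 ± 3.06 CPM (SD, n = 3) in SS MAC-1- and 83.9 ± 18.9 CPM (SD, n = 3) in 4 week MAC-1- HSCs. That log2 change was 1.87 (SE 0.51), with an adjusted p of 0.218 by edgeR, 0.00993 by DESeq2 and 0.259 by limma-voom.

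Snrpn, an imprinted gene of the region of Ndn, had 0 to 703 counts in a sample. Replicate 3 of SS MAC-1low held 1711 Ndn counts with 75 of Snrpn, and replicate 2 held 235 Ndn counts with 703 of Snrpn. Magel2, the gene next to Ndn, had at most 3 counts in a sample.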
